A study of Mus musculus with 8 samples.

Results

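Expression of 9 genes that encode GATA factors and their erythroid and megakaryocytic partners was examined in mouse fetal liver cells at E14.5. The genes are Gata1, Gata2, Zfpm1, Klf1, Epor, Tal1, Lmo2, Gfi1b and Ldb1. They were chosen by symbol, all 9 were present, and each had 1 row among the 14268 rows of the authors' deposited table. The embryos came from Flt3-Cre mice crossed to the mTmG reporter strain, in which a cell makes membrane Tomato until Cre recombination switches it permanently to membrane GFP. Lineage-negative cells with Kit, Sca1 and CD150 on their surface were sorted into a Tomato+ fraction (4 libraries) and a GFP+ fraction (4 libraries). For CD150 the sample titles give no sign, and it is read here as present. The fractions differ in whether the reporter recombined. The sample titles do not say whether both came from the same embryos, or whether all embryos carried Cre. GFP therefore records past or present activity of the Flt3-Cre transgene, and not the present level of Flt3. The labels do not say whether the libraries of a fraction came from separate embryos or litters, so p-values may measure technical spread alone.

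GATA factors are zinc finger proteins that bind DNA at short GATA motifs. Gata2 is known for its role in blood stem and progenitor cells, and Gata1 takes over from it at many sites as cells mature into red cells, megakaryocytes and mast cells. Both act with Zfpm1 (Fog1), a cofactor that binds the GATA zinc finger, and with a complex in which the basic helix-loop-helix factor Tal1 is joined to DNA-bound GATA factors through the LIM-only bridging protein Lmo2 and the scaffold Ldb1. Klf1 is an erythroid activator that binds CACCC motifs, Gfi1b is a zinc finger repressor of transcription that acts in both lineages, and Epor is the receptor for erythropoietin.

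The table holds 1 mean normalized count per fraction and no value of a single library. Group means are therefore given side by side, Tomato+ after GFP+, and whether single libraries overlap could not be examined. A gene is called where the authors' adjusted p is under 0.05. Of the 9 genes, 4 were called lower and 0 were called higher in GFP+ cells. Of all rows, 2.64% were called lower, 4.86% higher and 7.49% in either direction. All 9 log2 values (GFP+ over Tomato+) were under 0, with a median of -0.66, against a median of 0.01 over all rows, of which 48.8% were under 0. With the fractions scaled to the same total, every log2 value moves by -0.16 and the median of the 9 is -0.82. Both of these values are descriptions, since genes are not replicates. In sorted bulk cells, fewer cells that make a transcript and less transcript per cell cannot be told apart.

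**Figure D1:**
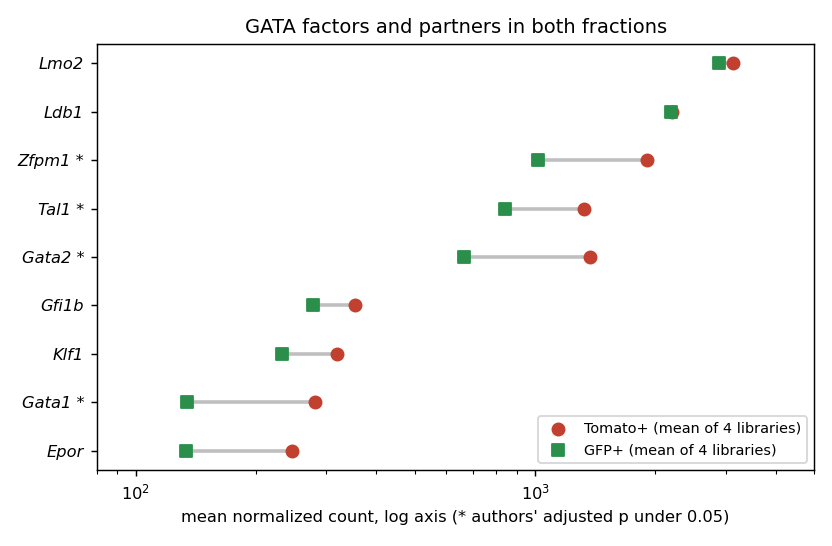
Mean normalized count of each gene (horizontal log axis) in GFP+ cells (squares) and Tomato+ cells (circles), each the authors' mean of 4 libraries with no error given. An asterisk marks an adjusted p under 0.05; the 4 marked genes are Zfpm1, Tal1, Gata2 and Gata1, while both symbols of Ldb1 lie at about 2193.

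Some of these genes are themselves known to be regulated by GATA factors, so the bases just upstream of their start sites are shown before the values. RefSeq promoters (build GRCm38.p6, while the authors' build was mm9) were matched by symbol for 8 of the 9 genes, 12 promoters in all. The 250 bases upstream of each start were searched on both strands for the GATA motif (in the forms AGATAA, then AGATAG, then TGATAA and finally TGATAG), the CACCC motif (CCNCNCCC) and the E-box bound by Tal1 and its partners (CANNTG), with matches of different motifs allowed to overlap. A GATA motif was present in 5 of the 12 promoters, against 26.5% of 32851 promoters in RefSeq. A CACCC motif was present in 10 of the 12, against 45.9%, and an E-box in 5 of the 12, against 66.2%. These are matches of letters and show no binding. The 4 sequences below are those with 1 GATA motif each (the fifth, 1 of 3 Ldb1 promoters, held 2), and the capitals mark it, read on the strand of the gene; TTATCA and TTATCT are the motif on the opposite strand. Tal1 was called lower, and Gfi1b, Klf1 and Epor were not called. The Tal1 sequence is chr4:115056176-115056425 (plus strand), that of Gfi1b chr2:28621983-28622232 (minus strand), that of Klf1 chr8:84901732-84901981 (plus strand) and that of Epor chr9:21963577-21963826 (minus strand).
Tal1: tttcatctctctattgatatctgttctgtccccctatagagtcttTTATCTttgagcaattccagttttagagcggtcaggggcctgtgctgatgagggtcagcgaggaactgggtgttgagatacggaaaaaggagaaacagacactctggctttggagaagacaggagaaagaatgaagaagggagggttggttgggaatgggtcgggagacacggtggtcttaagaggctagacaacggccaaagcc
Gfi1b: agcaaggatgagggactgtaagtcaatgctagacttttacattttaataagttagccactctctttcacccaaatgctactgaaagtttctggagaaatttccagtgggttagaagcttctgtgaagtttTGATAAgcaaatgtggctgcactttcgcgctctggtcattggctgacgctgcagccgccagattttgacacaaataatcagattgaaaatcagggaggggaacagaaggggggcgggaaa
Klf1: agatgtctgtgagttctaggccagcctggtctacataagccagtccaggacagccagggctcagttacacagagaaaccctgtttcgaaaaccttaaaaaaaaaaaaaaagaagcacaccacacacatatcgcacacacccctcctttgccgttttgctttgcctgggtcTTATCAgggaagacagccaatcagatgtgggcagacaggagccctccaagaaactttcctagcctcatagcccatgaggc
Epor: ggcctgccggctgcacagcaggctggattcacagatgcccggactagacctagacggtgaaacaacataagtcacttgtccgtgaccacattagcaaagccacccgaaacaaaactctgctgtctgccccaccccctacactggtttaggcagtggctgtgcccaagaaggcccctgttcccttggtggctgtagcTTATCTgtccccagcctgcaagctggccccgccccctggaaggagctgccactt

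The capitals begin 205 bases upstream of the Tal1 start, 120 upstream of that of Gfi1b, 80 upstream of that of Klf1 and 54 upstream of that of Epor. In the same window the promoters of Gata1, Gata2 and Zfpm1, the other 3 genes called lower, held no GATA motif, and they held 3, 1 and 6 (in the 2 promoters of Gata2), and 4 CACCC motifs, respectively. A match was thus found for 1 of the 4 genes called lower and for the 4 genes with a promoter that were not called (Gfi1b, Klf1, Epor and Ldb1). This is a description of few genes, and regulatory elements outside these windows were not searched.

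Both GATA factors were lower in GFP+ cells, by similar folds. In the authors' deposited table, Gata2 averaged 665 normalized counts in GFP+ against 1371 in Tomato+, a 2.06-fold deficit (log2 -1.04, adjusted p = 5.83e-13). Among the 376 rows called lower, it ranked 26 by p-value. Gata1 averaged 135 against 281 in the authors' deposited table, a deficit of 2.09-fold (log2 -1.06, adjusted p = 0.021). Its p-value ranked 286 among the same 376 rows, at nearly the same fold as Gata2, and the call is lost at an adjusted p under 0.01. The ratio of Gata1 to Gata2 normalized counts was 0.203 in GFP+ and 0.205 in Tomato+, a change of -0.02 on the log2 scale. Gene length and the scaling of the fractions cancel in that change. No test of it is possible from group means.

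Gata1 lies on the X chromosome, and the labels do not give the sex of the embryos. Xist, the RNA that coats the inactive X and that was chosen after its values were seen, averaged 167 against 35.8 in the authors' deposited table. The Y-linked Ddx3y had 688 and 679 there. Whether the sex of the embryos has a part in the Gata1 difference was not tested.

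Zfpm1, the cofactor of both GATA factors, averaged 1019 against 1907 in the authors' deposited table, a 1.87-fold deficit (log2 -0.90, adjusted p = 5.63e-08). Its change was close to that of its GATA partners: the Gata1 to Zfpm1 ratio moved by -0.16 and the Gata2 to Zfpm1 ratio by -0.14 on the log2 scale. Gata1, Gata2 and Zfpm1 thus fell by between 1.87-fold and 2.09-fold.

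Within the complex that joins Tal1 to the GATA factors, 1 of the 3 subunit genes was called lower; whether the subunits differ in their change could not be tested from group means. In the authors' deposited table Tal1 averaged 839 against 1327, a 1.58-fold deficit (log2 -0.66, adjusted p = 0.00523). The bridging protein gene Lmo2 had means of 2881 and 3121 (log2 -0.12, adjusted p = 0.851, the authors' deposited table). Ldb1, the scaffold, had means of 2193 and 2194 (log2 -0.0008, adjusted p = 1.0, the authors' deposited table). The ratio to Ldb1 was 2.08-fold lower in GFP+ for Gata1, 2.06-fold for Gata2, 1.58-fold for Tal1 and 1.08-fold for Lmo2. Gata1, Gata2 and Tal1 thus had lower counts relative to the scaffold, while the counts of the bridge and the scaffold differed by 0.12 or less on the log2 scale. Tcf3, Tcf12 and Tcf4, listed as further partners of the complex, had log2 values of 0.13, -0.09 and 0.38, and none was called.

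Klf1, Epor and Gfi1b had lower means in GFP+ and did not pass the threshold. Epor averaged 133 against 247 in the authors' deposited table, a log2 of -0.89 with an unadjusted p of 0.0147 and an adjusted p of 0.136. Its fold of 1.85 was close to that of Zfpm1, a more abundant transcript, but Gata1, at means of 135 and 281, was called. Gfi1b had means of 278 and 353 (log2 -0.35, adjusted p = 0.522, the authors' deposited table). Klf1 had means of 232 and 319 (log2 -0.46, adjusted p = 1.0, the authors' deposited table). With 5 of the 9 genes at an unadjusted p under 0.05, Epor was the one among these that failed the adjustment; 16.2% of all rows had such a p.

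The table gives no error, so the size of the uncertainty was read from the authors' p-values. The log2 value divided by the normal quantile of the unadjusted p gives an implied standard error, and from it an implied 95% interval, which holds only as far as the authors' test does. The interval ran from -1.30 to -0.78 for Gata2, from -1.19 to -0.62 for Zfpm1, from -1.01 to -0.31 for Tal1 and from -1.70 to -0.42 for Gata1. Among the genes not called, it ran from -1.60 to -0.17 for Epor, from -0.79 to 0.09 for Gfi1b and from -0.36 to 0.13 for Lmo2. As computed, the Lmo2 interval covers no 2-fold difference, whereas that of Epor does. For Klf1 it ran from -3.11 to 2.19, which covers a 2-fold difference in either direction. No interval is given for Ldb1, whose implied standard error of 0.0026 was below the 0.022 that counting error alone would give. The same reading gave the other 8 intervals, so they are descriptions and exclude no size of difference.

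**Figure D2:**
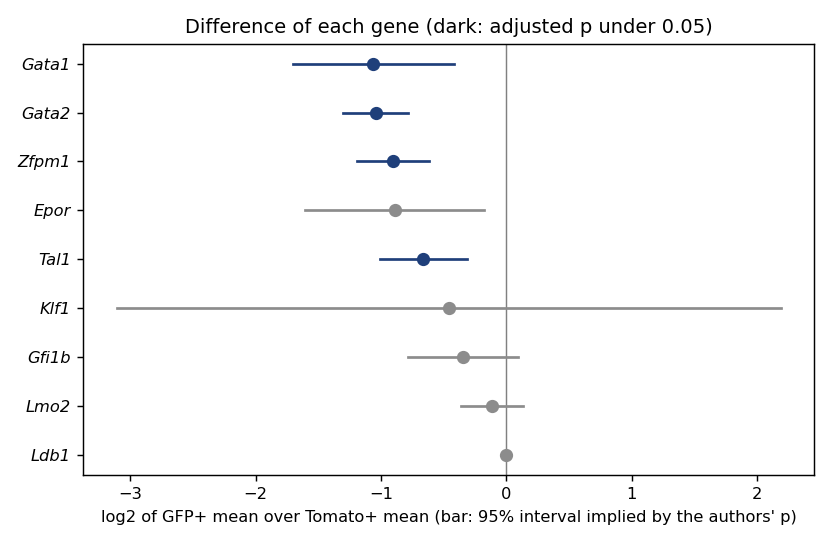
Log2 of the GFP+ mean over the Tomato+ mean for each gene (points), with the 95% interval implied by the authors' p-value (bars; none for Ldb1); dark symbols have an adjusted p under 0.05. The 4 dark bars lie wholly under 0, and the bar of Klf1, from -3.11 to 2.19, is the longest of the 8.

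Levels of different genes were compared per kilobase of exon, with lengths from GENCODE M21, since the sources used here do not give the annotation used for counting. In Tomato+ cells Lmo2 was highest at 1489 normalized counts per kilobase, followed by Zfpm1 at 563, Ldb1 at 509, Gata2 at 372, Tal1 at 303, Klf1 at 208, Gfi1b at 194, Epor at 124 and Gata1 at 115. In GFP+ cells the order began with Lmo2 at 1374, Ldb1 at 509 and Zfpm1 at 301 counts per kilobase. Tal1 at 192 then stood just above Gata2 at 181, Gfi1b and Klf1 were both at 152, and Epor at 67.1 and Gata1 at 55.3 were lowest. Neighbours in either order could not be tested against each other, because their spread over libraries is not in the table. Lmo2 was first and Gata1 last in both fractions.

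Further members of the GATA family were scarce. Gata3, a regulator of T cells and innate lymphoid cells, averaged 53.6 against 90.0 in the authors' deposited table (log2 -0.75, adjusted p = 0.503). Gata4, known from heart, liver and other mesoderm or endoderm, had means of 0.521 and 14.2 and was called lower (adjusted p = 0.0423, the authors' deposited table). No fold is given for Gata4, since so low a mean rests on few reads at an unknown depth. Gata5, Gata6 and Zfpm2 had no row.

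Among 14 further partners of the Tal1, Lmo2 and Ldb1 complex, 0 were called in either direction, with 4 at an unadjusted p under 0.05, a median log2 of -0.10, and 8 under 0. Tcf3, which encodes the E proteins that pair with Tal1, had means of 2266 and 2073 (log2 0.13, the authors' deposited table). Lyl1, a close relative of Tal1, had 1439 and 1312 (log2 0.13, adjusted p = 0.665, the authors' deposited table), a difference opposite in sign to that of Tal1. The Ets factor gene Fli1 had 878 and 1160 (log2 -0.40, adjusted p = 0.0808, the authors' deposited table), and Ldb2, a paralog of Ldb1, 28.2 and 56.3 (log2 -0.998, adjusted p = 0.0655, the authors' deposited table).

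In a list of 18 genes, made up of Gfi1 and of corepressors that work with Gfi1b and Zfpm1, 1 was called lower and 0 higher. The median log2 was 0.10, and no corepressor gene in the list was called. The gene called was Gfi1, the paralog of Gfi1b with roles in stem cells and myeloid and lymphoid progenitors, which averaged 386 against 650 in the authors' deposited table, a 1.68-fold deficit (adjusted p = 0.000766). Chd4, Rbbp4 and Rbbp7, subunits of the NuRD complex that Zfpm1 recruits, stood at log2 0.11, 0.34 and 0.25 in the authors' deposited table and did not pass.

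Of 20 genes of erythropoietin receptor signalling, 2 were called higher and 3 lower, with a median log2 of -0.21. Tfrc, the transferrin receptor for iron uptake, rose 1.35-fold, from 1332 to 1805 (adjusted p = 1.74e-07, the authors' deposited table). Bcl2l1, a survival gene induced through Stat5, was the other gene called higher. Podxl, a sialomucin, fell from 273 to 104 in the authors' deposited table, 2.62-fold with an adjusted p of 5.67e-06. The other 2 genes called lower were Stat5a, a transcription factor activated by the receptor, at 1.38-fold, and Socs2, a feedback inhibitor of cytokine receptors, at 2.27-fold in the authors' deposited table. Stat5b and the phosphatase gene Ptpn6 had log2 values of -0.34 and 0.24 there and were not called.

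Among 18 other regulators of both lineages, 2 were called higher and 2 lower, and the median log2 was -0.10. Myb, required for fetal liver blood formation, fell 1.26-fold with an adjusted p of 0.0485 in the authors' deposited table. E2f2, a cell cycle factor of maturing red cells, rose 1.64-fold with an adjusted p of 1.66e-07 in the authors' deposited table, and the other gene called higher was Klf3, a target and antagonist of Klf1, at 1.53-fold. Etv6 had a log2 of -0.07 in the authors' deposited table.

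Genes that act downstream in the 2 lineages went opposite ways. Of 28 measured erythroid genes, many of them known targets of Gata1 or Klf1, 21 were called higher and 2 lower, with a median log2 of 0.68. With the fractions scaled to the same total and the authors' p-values kept, the counts are 20 and 3. Rhag then changes sign, but the kept p-value does not test a fall of Rhag. Hba-a2 and Hbb-b1, adult globin genes, rose 3.85-fold and 3.26-fold, and Slc25a37, the mitochondrial iron importer, rose 2.25-fold in the authors' deposited table. Car2, a carbonic anhydrase, was called at a fold of only 1.13. The 2 genes called lower were Tfr2, a transferrin receptor known to associate with Epor, which fell 4.10-fold, from 568 to 139, and Aqp1, a water channel of red cells and endothelium, which fell 2.73-fold, from 375 to 138, in the authors' deposited table. Of 20 measured megakaryocyte genes, 14 were called lower and 0 higher, with a median log2 of -1.43. Vwf and Itga2b, of platelets and megakaryocytes, fell 6.78-fold and 3.92-fold, and Mmrn1, of platelet granules, fell 1.45-fold, while Nbeal2, also needed for platelet granules, had a log2 of -0.04 in the authors' deposited table. All 9 log2 values of the GATA factors and partners were under 0, as was the megakaryocyte median, while the erythroid median was above 0. The sizes differed, with Lmo2 at only -0.12 and Ldb1 at -0.0008. A link between the 9 genes and either list was not tested.

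**Figure D3:**
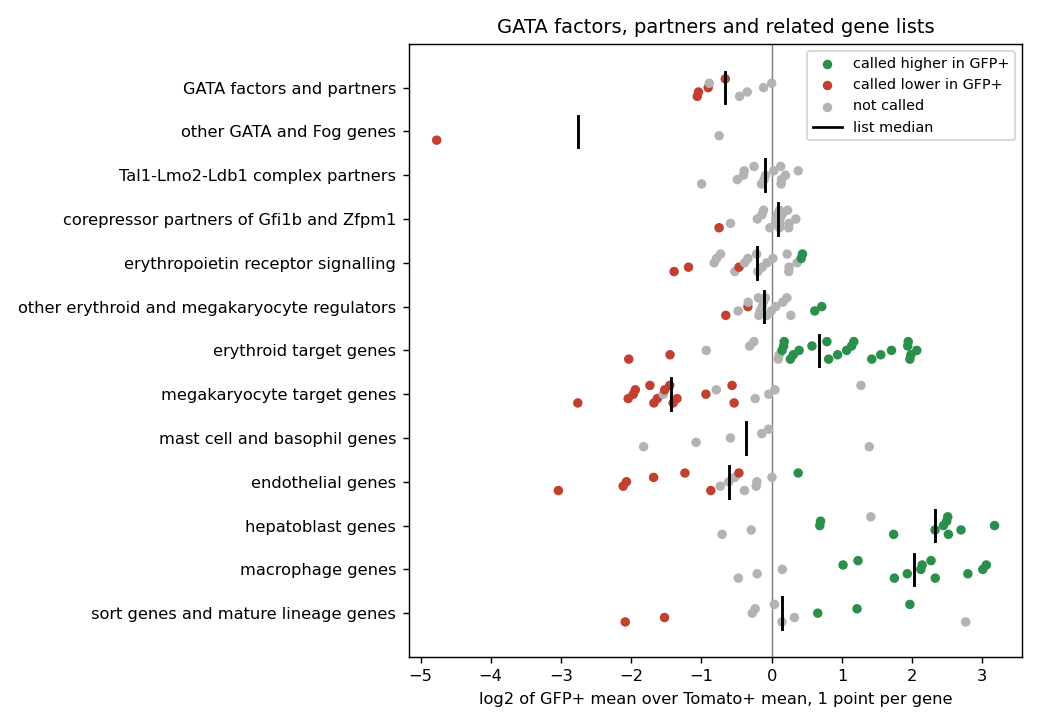
Log2 of the GFP+ mean over the Tomato+ mean for the 9 genes and for 12 related gene lists, 1 point per gene with a row, coloured by the call at an adjusted p under 0.05; black bars are list medians. The median is -0.66 for the 9 genes, 0.68 for erythroid and -1.43 for megakaryocyte genes, and a gene in 2 lists is drawn in both.

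Other cell types make some of these factors, so their marker lists are given beside the result, all from the authors' deposited table. Endothelial cells, which express Gata2, Tal1 and Lmo2, had 7 of 15 markers called lower and 1 higher. Their summed means were 4775 in GFP+ and 6787 in Tomato+, with Tie1 2.35-fold and Esam 4.33-fold lower, Eng at a log2 of -0.47 and Egfl7 at 0.38. The other 4 called lower were Kdr at 4.19-fold, Tek at 3.21-fold, Robo4 at 1.82-fold and Cldn5, whose low means of 2.84 and 23.3 rest on few reads. Cdh5, with means of 88.7 and 147, had a log2 of -0.73 (p = 0.0233, adjusted p = 0.190 in the authors' deposited table). Mast cells and basophils, which express Gata1 and Gata2, had 0 of 6 measured markers called and 2 at an unadjusted p under 0.05. Their summed means were 2055 and 2324, most of it Srgn, which many blood cells make, and Hdc, Cpa3 and Mitf had log2 values of -1.08, -0.59 and -0.04; Ms4a2, Fcer1a, Tpsb2, Tpsab1, Prss34 and Gzmb had no row. The erythroid list came to summed means of 50165 and 20929. The megakaryocyte list summed to 4676 and 7171. Hepatoblast genes, with 10 of 13 called higher and 0 lower, summed to 3957 and 2174, among them Alb, Afp, Trf and Dlk1 with log2 values of 2.45, 2.49, 0.70 and -0.29. Macrophage genes, with 11 of 14 called higher and 0 lower, summed to 2714 and 1391, among them Cd5l, Marco, Csf1r and Lyz2 with log2 values of 2.79, 3.06, 1.23 and -0.21. The part of any of these cell types in the differences of the 9 genes was not tested. The lists do not measure amounts of those cells, since the sorted stem and progenitor cells may make some of the same transcripts, among them endothelial and megakaryocyte genes. Of the genes for the sort markers, Kit and Ly6a (Sca1) were not called and Slamf1 (CD150) was called lower. Among other listed stem and progenitor genes, which the sample titles do not name, Procr was called lower and Flt3 and Cd34 higher. Cd48 and Ptprc were not called, and the mature lineage gene Cd3e had no row.

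Across the whole table, the 9 genes lay in the middle to upper range of abundance, from percentile 47.2 of the overall means (Epor) to percentile 97.7 (Lmo2). The log2 values of Gata1 and Gata2 were at percentiles 4.74 and 4.85 of all rows, those of Zfpm1 and Epor at 6.09 and 6.38, and that of Tal1 at 9.49. Klf1, Gfi1b, Lmo2 and Ldb1 stood at percentiles 14.1, 18.2, 34.8 and 48.6. Among called rows with an overall mean within 2 times that of Gata1 (317 symbols), the 3 nearest in log2 were F5, a coagulation factor, at -1.06, Gabbr1 at -1.05 and Naip6 at -1.05. For Gata2 (198 symbols) they were Sept8 at -1.06, Mllt3, a regulator of stem cell maintenance, at -1.01 and Ikzf2, an Ikaros family factor, at -0.94. Likeness here rests on 2 group means alone.

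**Figure D4:**
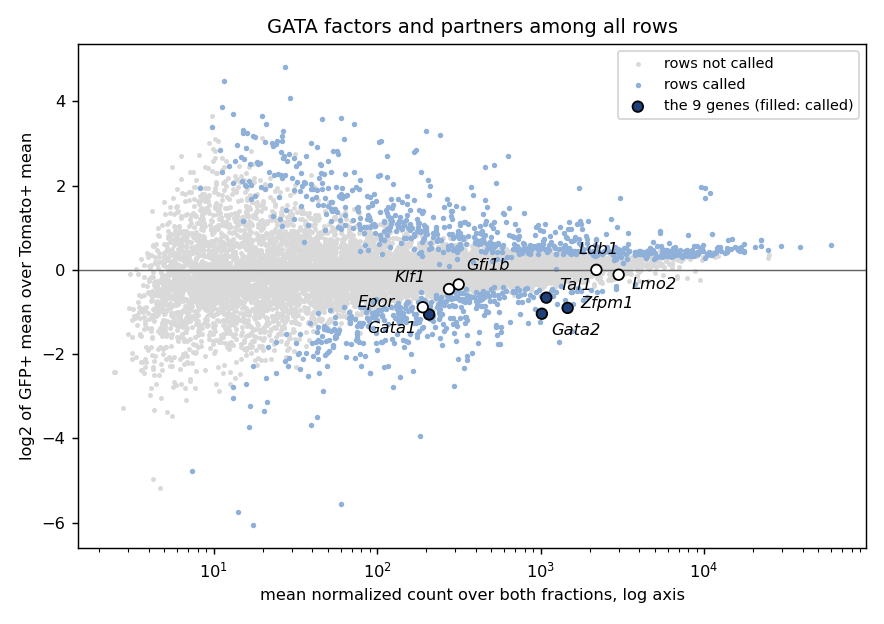
Log2 of the GFP+ mean over the Tomato+ mean (vertical) against the overall mean normalized count (horizontal, log axis) for all 14268 rows, called rows in blue and the 9 genes as large circles, filled where called. The 4 filled circles lie between -1.06 and -0.66, and Lmo2 and Ldb1 lie near 0 at high means.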

How the data were processed

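RNA was sequenced from Tomato+ and GFP+ Lin-, Kit+, Sca1+ cells sorted with CD150, 4 libraries each, grouped by sample title. The titles give no sign after Cd150, which is read here as positive. Per the submitters' processing notes, the tools were DESeq, bedtools, TopHat, TopHat2 2.0.11 and Bowtie2 2.2.1 and the build mm9; the sources used here do not give their settings. The authors deposited mean normalized counts (a signal per row, named baseMean in the file headers) over all libraries and per fraction, a fold change as a ratio, its log2 and p-values with adjusted p-values. Only group means are in that table, so depth and spread per library are unknown and no count model was refitted. A repeated header line was dropped. The sign was turned so that log2 is GFP+ over Tomato+ (Python 3.11.15, scipy 1.17.1); adjusted p-values cover all 14268 rows. Where a symbol had several rows, that of highest mean was taken. Of 193 further genes in 12 lists, 178 had a row, 6 through an older symbol. Named by rule were the 9 genes, the 2 smallest p-values and 2 highest means of each list, and the 3 genes nearest Gata1 and Gata2; any other gene was chosen after its values were seen. Some genes are not reported here. The genes and lists were chosen with earlier results of these data known. Globin values are uncertain, since near-identical copies share reads. The adjustment and counting were tested on simulated data.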

Additional observations from a re-analysis of the deposited data

How the results depend on the processing

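No paired analysis was possible because only means of each fraction were at hand, without values of single libraries; leaving out single libraries and the replicate block were not run for the same reason. Of the 9 genes, 4 were called lower (0 higher) in the main comparison, 2 (Gata2 and Zfpm1) with a Bonferroni adjustment and 2 (Gata1 and Gata2) where a log2 change of at least 1 was required, both stricter criteria; the other alternatives gave 3 or 4, and 3 at an adjusted p under 0.01, where Gata1 was lost. No alternative turned any of the 4 called genes among these 9, but none could have done so. The rescalings move every log2 value down, and the other alternatives change the threshold, the adjustment or the rows used. Each of the 9 genes has 1 row. Over the 12 lists, 49 genes were called higher and 32 lower; the minimum change left 31 higher, 11 of them among the 21 erythroid genes, and Bonferroni left 18 lower, 8 of the 14 megakaryocyte genes. Scaling the fractions to the same total, with the authors' p-values kept, left 20 erythroid genes higher and 3 lower, since the shift exceeds the change of Rhag. That is a change of sign and not a tested fall. With a t quantile of 6 degrees of freedom the median implied standard error was 0.15 in place of 0.20, and with 1 normalized count added the change of the Gata1 to Gata2 ratio was -0.01.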

Other observations

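The authors' p-values did not follow from mean and log2 alone. Klf1, at means of 232 and 319, had an unadjusted p of 0.735 and an implied standard error of 1.35. Gfi1b, at means of 278 and 353 and a smaller log2 of -0.35, had a p of 0.121 and an implied standard error of 0.22. Gab2, an adaptor of cytokine receptors chosen after its values were seen, had means of 249 and 325, a log2 of -0.39 and a p of 0.0172 in the authors' deposited table. The erythroid genes Ermap and Xk, chosen likewise, stood at log2 -0.31 and -0.25 with p-values of 0.315 and 0.639, whereas Blvrb and Ank1 were called higher in the authors' deposited table at log2 0.18 and 0.27. The spread between libraries is not in the table used here, and the cause was not tested. The implied standard error of Ldb1 lay below counting error, so a p-value need not follow from the ratio of both means. Calls at a small log2, such as those of Blvrb and of Rhag (0.15), carry this limit.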
